A study of Glycine max with 6 samples.

Results

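Across 19 soybean chromosomes, 245 places were found where peaks of GLYMA.06G314400 and GLYMA.13G317000 coincided in every list and where no other peak of any list lay nearby. The data come from chromatin immunoprecipitation with sequencing (ChIP-seq), in which an antibody recovers DNA crosslinked to a protein and the recovered fragments are mapped along the genome. Embryos at the early maturation stage were taken from 6 to 7 mm seeds of Glycine max cultivar Williams 82, fixed in 1% formaldehyde, and their chromatin was sheared to 100 to 500 bp. The first group was precipitated with 3 µg of an antibody to residues 302 to 316 of GLYMA.06G314400, and the second with 2 µg of an antibody to residues 1 to 15 of GLYMA.13G317000. Biological replicates numbered 2 per antibody. The remaining 2 samples are sheared input chromatin taken before precipitation, for which no list was used here. Mutant embryos or other controls for the antibodies are not analysed here.

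The loci were selected on measured peaks. Peaks of the 4 lists were merged into 1 locus wherever they overlapped by 1 bp or more, on chromosomes 1 to 20 without chromosome 13. A locus with a peak in all 4 lists is called shared. It counts as isolated where no other locus of any list lay within 50000 bp on either side. Loci with a midpoint between 40% and 60% of the chromosome length, taken as the largest peak end, were left out as the chromosome centre. The 19 chromosomes held 65384 loci, of 70952 on all sequences, and 31459 of them were shared. Of the shared loci outside the centres, 245 were isolated and 29764 had a neighbour, so the isolated ones made up 0.816%. The label given to them, isolated and shared, is the rule itself, and the values below describe what came with it.

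A protein that regulates transcription binds short DNA words, often close to the genes it acts on, and ChIP also recovers DNA that a protein reaches through a partner. In soybean the middle of each chromosome is rich in repeats and poor in genes, while genes crowd towards both ends. Early maturation is the stage at which the embryo starts to store protein and oil. The labels give both proteins by gene identifier only, with no name or family. No source used here gives the genome build of the coordinates. Genes and sequence at these loci are not analysed here.

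Each peak carries a fold enrichment, the authors' ratio of the fragment pile at the summit, the highest point of the peak, to the local background. The lists held 60812 and 53281 peaks for replicates 1 and 2 of GLYMA.06G314400 and 58036 and 41859 peaks for those of GLYMA.13G317000. The reads behind them are not given, which leaves the depth unknown, so that absence from a list does not show absence of binding. Since these peaks chose the loci, height, width and summit position are given as descriptions without a test, and nothing is called particular to the isolated loci. Lists differ in length and their controls are unknown, so heights of the proteins stand side by side.

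The share of isolated loci with a peak in all 4 lists was near that of all loci, while the share with a peak in 1 list was higher than at loci with a neighbour. Outside the centres, 526 loci of any kind were isolated, and 245 of them (46.6%) had a peak in all 4 lists. The background share was 48.1% over all loci of the 19 chromosomes. Of the other isolated loci, 131 (24.9%) had a peak in 1 list, 73 (13.9%) in 2 lists and 77 (14.6%) in 3 lists, against 19.1%, 15.7% and 17.1% of the 61812 loci with a neighbour outside the centres. The most frequent incomplete set, with 68 loci, was both GLYMA.06G314400 lists with GLYMA.13G317000 replicate 1, so that GLYMA.13G317000 replicate 2, the shortest list, was the missing one. Isolated loci seen in 1 list had low median fold enrichments. With GLYMA.06G314400 the median was 3.61 in the 44 loci of replicate 1 and 4.20 in the 20 of replicate 2. With GLYMA.13G317000 it was 3.55 in the 36 loci of replicate 1 and 3.05 in the 31 of replicate 2. Loci in 1 list that had a neighbour were not summarised, so low values are not read as a trait of isolated loci.

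The isolated shared loci sat in the inner parts of the arms. Between 20% and 40% of chromosome length there were 100 of them, and between 60% and 80% there were 104. Below 20% there were 28, and above 80% there were 13. These outer bands held 11402 and 10979 shared loci, so 0.246% and 0.118% of shared loci were isolated there. In the inner bands the isolated part was 2.36% and 3.07%. It reached 8.31% between 60% and 65%, next to the excluded centre, and 3.91% between 35% and 40%. No isolated shared locus lay in the first 5% of any chromosome or between 90% and 95%. The space around a locus entered the rule, so nothing is read from this gradient beyond how thinly peaks lie along the inner arms.

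**Figure D1:**
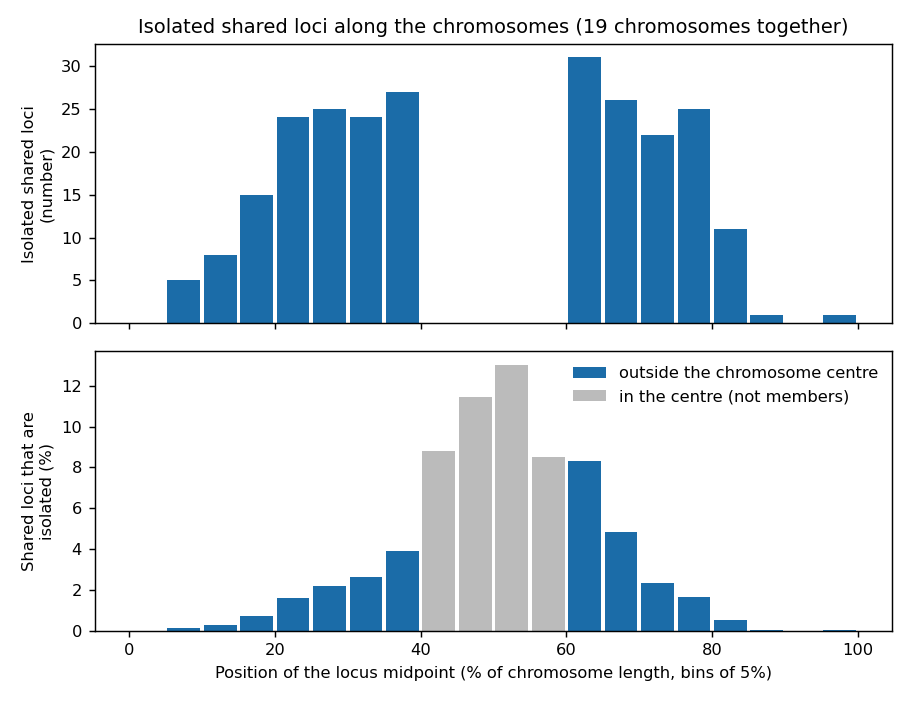
Isolated shared loci by position, in bins of 5% of chromosome length over 19 chromosomes. The upper bars give their number and the lower bars the percentage of shared loci that were isolated, with the excluded centre in grey. The percentage climbs towards the centre on both sides, to 3.91% in the bin before 40% and 8.31% in the bin after 60%.

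All 19 chromosomes had such loci, 12.9 ± 5.73 each (mean ± SD over 19 chromosomes). Chromosome 14 had the most, 24, followed by chromosome 20 with 22 and chromosome 1 with 21. Chromosome 8 had 2, the fewest, among 1985 shared loci outside its centre. The isolated part of shared loci ran from 0.101% on chromosome 8 to 1.81% on chromosome 14. Chromosomes dense in shared loci tended to hold fewer isolated ones per Mb (Spearman rho −0.530 and Pearson r −0.568 across 19 chromosomes, as a description, since both densities come from the same lists). The rule asks for empty space around a locus, so a negative sign is largely built in and nothing is read from it. Over all 19 chromosomes, 128 of the loci lay below 40% of the length and 117 above 60%, but on some chromosomes the counts were uneven. Chromosome 20 had 20 loci below 40% of its length and 2 above 60%, whereas chromosome 17 had 0 and 10, and chromosome 15 had 1 and 12. Shared loci were not counted per side, so these counts have no background share beside them.

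The distances around the loci were wide and varied. The nearest other locus lay a median of 78756 bp away, with quartiles of 62187 and 116303 bp and a range of 50444 to 811053 bp. For shared loci with a neighbour the median was 1635 bp. No other locus lay within 100000 bp at 82 of the 245 loci, or within 200000 bp at 14. At 102 of 244 loci with a neighbour on both sides, the farther neighbour was more than 2 times as far as the nearer. The same count was not made for other loci, so it has no background share and is not read as a trait of these loci. Within 500000 bp, both sides counted together, an isolated shared locus had a median of 16 other loci, against 146 around shared loci with a neighbour outside the centres. Around shared loci with a neighbour at 20% to 40% and 60% to 80% of the length, the same quantity was 102.

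The loci that bounded these empty stretches were shared about as often as any other. Of 489 flanking loci, counted once per side of a member, 238 (48.7%) had a peak in all 4 lists, 71 in 3, 56 in 2 and 124 in 1. The first share is near the 48.1% of all loci. At 51 of the 245 loci both flanking loci were shared, at 136 there was 1 and at 58 there was 0. The next locus was itself an isolated shared one on 1 side for 70 of the 245 and on both sides for 6. These splits per locus, and the chains described next, were not counted for other loci. They have no background share beside them, so they are not read as clustering.

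Where isolated shared loci followed each other directly, they formed short chains. The 245 loci made up 169 single loci, 31 pairs, 2 chains of 3 and 2 chains of 4. On chromosome 12 a chain of 4 ran from 27791110 to 28161118, a span of 370 kb, with lowest fold enrichments between 4.48 and 7.03. On chromosome 20 a chain of 4 ran from 6063019 to 6424751 (362 kb), with lowest values between 2.86 and 6.45. The first chain of 3 spanned 19217597 to 19744974 of chromosome 1. The other spanned 39756646 to 39979113 of chromosome 6. Strength varied within the chain on chromosome 1. Its first locus had 2.73 and 4.06 with GLYMA.06G314400 (replicates 1 and 2), beside 3.31 and 3.15 with GLYMA.13G317000, while the third had 24.7 and 20.4 with GLYMA.06G314400, beside 18.1 and 10.1 with GLYMA.13G317000.

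In fold enrichment the isolated shared loci lay within the range of shared loci with a neighbour in every list. In GLYMA.06G314400 replicate 1 they ranged from 2.73 to 42.4 with a median of 9.51, and shared loci with a neighbour outside the centres had a median of 10.3. In replicate 2 the range was 3.36 to 42.9 with a median of 10.2, against 10.7. In GLYMA.13G317000 replicate 1 it was 2.86 to 34.4 with a median of 7.93, against 8.39. In replicate 2 it was 2.31 to 25.6 with a median of 5.44, against 5.89. The isolated loci thus had the lower median in each of the 4 lists, by less than 1 unit of fold enrichment, while the interquartile ranges overlapped in every list. The highest values among shared loci with a neighbour, 48.4, 75.3, 48.7 and 46.8 in the same order, were not reached. Those maxima come from 29764 loci against 245, and a larger group can hold more extreme values, so nothing is read from them.

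**Figure D2:**
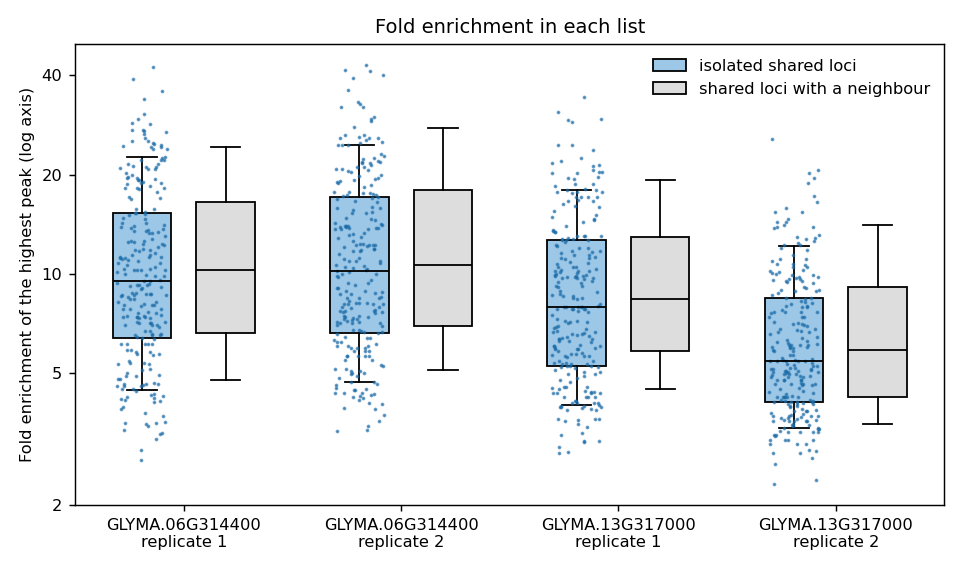
Fold enrichment of the highest peak per locus in each list, on a log axis. Blue boxes with points are the 245 isolated shared loci and grey boxes the 29764 shared loci with a neighbour outside the centres, with the median, the quartiles, and whiskers at the 10th and 90th percentiles. The boxes overlap in every list, and medians of the isolated loci (9.51, 10.2, 7.93 and 5.44) lie just under those of the others (10.3, 10.7, 8.39 and 5.89).

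A single number per locus, the lowest fold enrichment of the 4 lists, had a median of 5.26 over the isolated shared loci and of 5.67 over shared loci with a neighbour. Isolated shared loci within the centres, 147 in number, had 5.86. Among the isolated loci outside the centres, 68 (27.8%) were below 4.07, the lower quartile of all shared loci, and 55 (22.4%) were above 8.94, the upper quartile. All 4 values were at 10 or more at 39 loci (15.9%), against 20.1% of all shared loci. All 4 values were below 5 at 17 loci (6.94%), against 3.75% of all shared loci. Both shares lean towards weaker loci, and they rest on the peaks that chose the loci. The isolated shared loci within the centres did not lean this way, with 19.7% and 2.72%. The median of the isolated loci also varied with the settings. It was 5.78 with an isolation distance of 100000 bp and 5.70 with an excluded centre of 45% to 55%. The 5.67 of shared loci with a neighbour belongs to the unchanged rule and was not recomputed. Whether isolated loci keep the lower median at those settings was therefore not checked.

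Within a locus, the lists stood in much the same order as at shared loci in general. GLYMA.13G317000 replicate 2 gave the lowest of the 4 values at 203 loci (82.9%), with a background of 83.0% over all shared loci. Both GLYMA.06G314400 values were above both GLYMA.13G317000 values at 159 loci (64.9%), with a background of 64.7%. Replicate 2 was above replicate 1 at 138 loci (56.3%) for GLYMA.06G314400 and at 30 (12.2%) for GLYMA.13G317000. At shared loci with a neighbour outside the centres, these shares were 62.8% and 12.2%.

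The reverse order, with both GLYMA.13G317000 values above both GLYMA.06G314400 values, occurred at 3 isolated loci (1.22%, against 2.16% of shared loci with a neighbour), which were singled out after their values were seen. On chromosome 15, the locus from 51704331 to 51705263 had 6.15 and 7.63 with GLYMA.06G314400, beside 9.74 and 12.96 with GLYMA.13G317000. It is the last locus of its chromosome, at the very end of the length used, so it has a neighbour on 1 side only and its isolation was checked there alone. On chromosome 2, the locus from 29243354 to 29243877 had 4.595 and 4.71 with GLYMA.06G314400, beside 5.94 and 6.10 with GLYMA.13G317000. On chromosome 4, the locus from 41682294 to 41682782 had 4.27 and 4.45 with GLYMA.06G314400, beside 7.85 and 4.87 with GLYMA.13G317000. The differences on chromosomes 2 and 4 are small, apart from the value of 7.85.

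Loci that were strong in 1 list were strong in the others. Across the 245 loci, fold enrichments had a Spearman rho of 0.919 between the replicates of GLYMA.06G314400 and of 0.869 between those of GLYMA.13G317000. Between the proteins it was 0.884 in replicate 1 and 0.860 in replicate 2. Over the 29764 shared loci with a neighbour the same 4 values were 0.917, 0.850, 0.892 and 0.855. These are descriptions across loci that share libraries, and loci are not replicates.

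The strongest isolated shared locus, by the lowest of its 4 values, lay on chromosome 2 from 17305134 to 17306010. Replicates 1 and 2 gave it a fold enrichment of 27.2 and 41.5 with GLYMA.06G314400, beside 29.5 and 25.6 with GLYMA.13G317000. Its neighbours were 147866 bp and 149599 bp away, and its 4 summits lay within 21 bp. Here the lists of the proteins overlapped in height, since GLYMA.13G317000 replicate 1 was above GLYMA.06G314400 replicate 1.

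On chromosome 15, the locus from 35368680 to 35369744 had 27.0 and 39.9 with GLYMA.06G314400, beside 21.3 and 20.7 with GLYMA.13G317000. On chromosome 3, the locus from 6904110 to 6905263 had 23.9 and 32.1 with GLYMA.06G314400, beside 22.0 and 20.2 with GLYMA.13G317000. The chromosome 18 locus from 9644525 to 9645423 had 30.6 and 39.2 with GLYMA.06G314400, beside 24.6 and 19.5 with GLYMA.13G317000. In all 3, both GLYMA.06G314400 values were above both GLYMA.13G317000 values, and the replicates of GLYMA.13G317000 were closer to each other than those of GLYMA.06G314400.

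Chromosome 20 held the locus with the highest value of GLYMA.06G314400 replicate 1 and of GLYMA.13G317000 replicate 1 among the 245, from 5602887 to 5603994. It had 42.4 and 41.3 with GLYMA.06G314400, beside 34.4 and 18.9 with GLYMA.13G317000, so the replicates of the second protein differed widely. On chromosome 4, the locus from 15475845 to 15477183 had 28.6 and 42.9 with GLYMA.06G314400, beside 17.2 and 15.5 with GLYMA.13G317000, and 42.9 was the highest value of GLYMA.06G314400 replicate 2. On chromosome 14, the locus from 33989071 to 33989761 had 18.2 and 29.0 with GLYMA.06G314400, beside 17.9 and 15.8 with GLYMA.13G317000. At the loci on chromosomes 4 and 14, GLYMA.06G314400 replicate 2 stood well above the other 3 lists.

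The chromosome 5 locus from 9925827 to 9926746 had 22.6 and 23.1 with GLYMA.06G314400, beside 23.8 and 14.3 with GLYMA.13G317000. On chromosome 16, the locus from 14540918 to 14541832 had 27.3 and 25.7 with GLYMA.06G314400, beside 19.4 and 13.8 with GLYMA.13G317000. On chromosome 6, the locus from 32861879 to 32863031 had 25.3 and 27.9 with GLYMA.06G314400, beside 20.7 and 13.1 with GLYMA.13G317000. The replicates of GLYMA.06G314400 were near each other in these 3 loci, and GLYMA.13G317000 replicate 2 stood below its replicate 1. The chromosome 6 locus had an empty stretch of 1308294 bp on its left and 2 other loci within 500000 bp, both sides counted together. The best loci of the remaining 9 chromosomes had lowest values between 6.76, on chromosome 7, and 12.7, on chromosome 17.

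**Figure D3:**
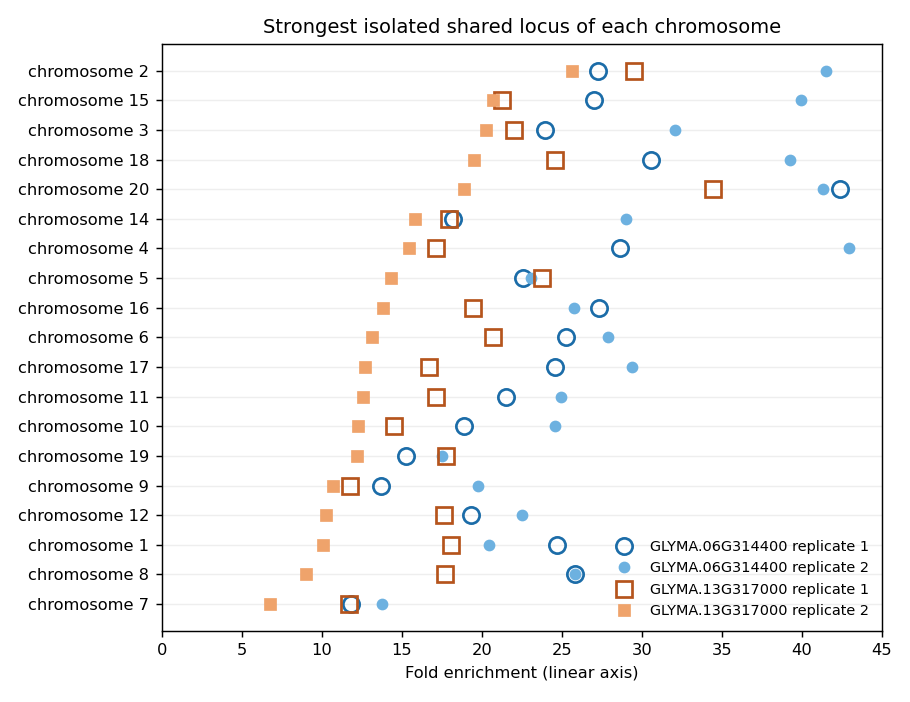
Fold enrichment in each list at the strongest isolated shared locus of each of 19 chromosomes, ordered by the lowest of the 4 values. Circles are GLYMA.06G314400 and squares GLYMA.13G317000, open for replicate 1 and filled for replicate 2. GLYMA.13G317000 replicate 2 is the lowest mark in every row, from 25.6 on chromosome 2 to 6.76 on chromosome 7.

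Loci with the widest empty surroundings ranged from weak to strong. The most isolated lay on chromosome 1 from 15585878 to 15586546, with 811053 bp to its left neighbour and 971240 bp to its right, and was the one member with no other locus within 500000 bp. It had 14.2 and 15.4 with GLYMA.06G314400, beside 7.83 and 6.40 with GLYMA.13G317000. On chromosome 2, the locus from 19237445 to 19238282 had its nearest neighbour 449087 bp away and was strong in every list, with 35.7 and 33.1 for GLYMA.06G314400, beside 28.8 and 16.5 for GLYMA.13G317000. The chromosome 2 locus was above the upper quartile of the isolated loci in each list, and the chromosome 1 locus was above their median in 3 of the 4, GLYMA.13G317000 replicate 1 being the exception.

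The third, on chromosome 19 from 19337719 to 19338201, was 350771 bp from the nearest neighbour and had 7.16 and 6.22 with GLYMA.06G314400, beside 5.75 and 4.91 with GLYMA.13G317000. The fourth, on chromosome 1 from 19217597 to 19218043 with 297776 bp, is the weak first locus of the chain described above. The fifth, on chromosome 17 from 27928430 to 27929095 with 271125 bp, had 10.2 and 9.05 with GLYMA.06G314400, beside 7.23 and 4.77 with GLYMA.13G317000. Over all 245 loci, the distance to the nearest locus and the lowest fold enrichment showed no trend (Spearman rho −0.0045, a description across loci). The 14 loci over 200000 bp from any other had a median lowest value of 5.38, and the 116 loci within 75000 bp had 5.14.

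**Figure D4:**
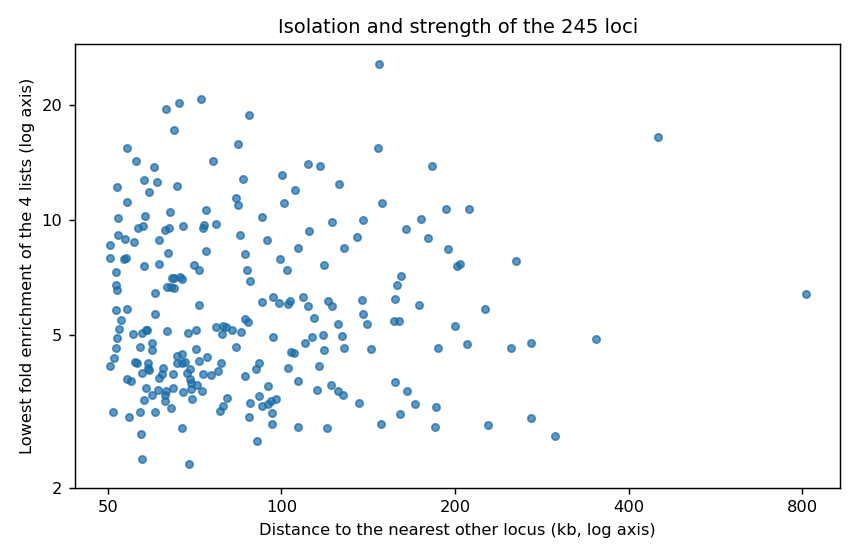
Lowest fold enrichment of the 4 lists against the distance to the nearest other locus, both on log axes, with 1 point per isolated shared locus. The points show no slope, lowest values run from 2.31 to 25.6, and the most isolated locus, 811053 bp from its neighbour, has 6.40.

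The weakest loci of the set were present in 4 lists all the same. On chromosome 14, the locus from 15438027 to 15438458 had 4.23 and 3.48 with GLYMA.06G314400, beside 4.11 and 2.31 with GLYMA.13G317000. On chromosome 2, the locus from 30291710 to 30292323 had 4.90 and 4.36 with GLYMA.06G314400, beside 3.00 and 2.38 with GLYMA.13G317000. On chromosome 1, the locus from 16817293 to 16817681 had 4.48 and 6.41 with GLYMA.06G314400, beside 4.24 and 2.65 with GLYMA.13G317000. GLYMA.13G317000 replicate 2 was the lowest in all 3.

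Isolated shared loci were somewhat narrower than shared loci with a neighbour. Their width, from the first to the last base of any peak, had a median of 626 bp with quartiles of 499 and 783 bp, against 694 bp with quartiles of 550 and 892 bp for shared loci with a neighbour outside the centres. At 20% to 40% and 60% to 80% of the length, those with a neighbour had a median of 683 bp. Wider than 1000 bp were 25 isolated loci (10.2%), against 16.3% of all shared loci. The peaks themselves were also narrower in each list. Median widths were 608 and 486 bp for GLYMA.06G314400 replicates 1 and 2 and 482 and 368 bp for those of GLYMA.13G317000, against 674, 528, 521 and 390 bp at shared loci with a neighbour. Those with a neighbour at 20% to 40% and 60% to 80% had 663, 522, 514 and 390 bp. Isolated shared loci in the centres had 624, 528, 523 and 399 bp, so they were narrower than loci with a neighbour outside the centres only in GLYMA.06G314400 replicate 1. Each list had exactly 1 peak at 231 isolated loci (94.3%), with a background of 91.8%. A locus that joins peaks is wider by construction, and stronger loci were wider in both sets (Spearman rho of lowest value and width 0.660 over 245 loci and 0.610 over 29764).

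The widest isolated locus lay on chromosome 9 from 16468353 to 16470513, and its 2161 bp were covered by a single peak of GLYMA.06G314400 replicate 1. It had 19.02 and 14.6 with GLYMA.06G314400, beside 13.1 and 5.15 with GLYMA.13G317000. Replicate 2 of each protein split it into 2 peaks, yet the highest summits of the 4 lists lay within 27 bp. The locus on chromosome 12 from 28159482 to 28161118 was 1637 bp wide, with 13.6 and 13.1 for GLYMA.06G314400, beside 8.41 and 6.30 for GLYMA.13G317000, and held 3 peaks of GLYMA.13G317000 replicate 2. On chromosome 5, the locus from 12433082 to 12434714 was 1633 bp wide with 1 peak per list, and had 27.0 and 18.98 with GLYMA.06G314400, beside 12.8 and 6.03 with GLYMA.13G317000. On chromosome 17, the locus from 25648496 to 25649996 was 1501 bp wide and had 24.2 and 26.0 with GLYMA.06G314400, beside 21.4 and 11.99 with GLYMA.13G317000. Summits of these 4 loci spread over 20 to 41 bp, less than the median of 41 bp or equal to it. The fifth widest, on chromosome 11, had a spread of 463 bp and is described with the displaced summits.

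Summits of all lists fell close together at most isolated loci. The spread of the 4 summits, the highest peak of each list being used, had a median of 41 bp with quartiles of 27 and 59 bp, against 42 bp with quartiles of 26 and 68 bp at shared loci with a neighbour. All 4 summits were within 50 bp at 158 loci (64.5%), with a background of 60.6% over all shared loci, and within 100 bp at 222 (90.6%), against 87.6% of all shared loci. The median distance was 17 bp between the replicates of GLYMA.06G314400 and 20 bp between those of GLYMA.13G317000. Between the proteins it was 19 bp in both replicates, within the range of the distances between replicates. Summits of the proteins were within 50 bp at 209 loci (85.3%) in each replicate, those of the replicates of GLYMA.06G314400 at 217 (88.6%) and those of GLYMA.13G317000 at 206 (84.1%). Over all shared loci the shares were 84.9% and 80.7% between the proteins in replicates 1 and 2, with 86.3% for replicate pairs of GLYMA.06G314400 and 82.9% for replicate pairs of GLYMA.13G317000.

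Summits lay closer together at stronger loci. At the 62 weakest isolated loci, with lowest values of 2.31 to 3.96, the median spread was 55 bp and 27 of 62 loci had all summits within 50 bp. At the 61 strongest, from 8.49 to 25.6, the median was 29 bp and the count 53 of 61. Spearman rho between lowest value and spread was −0.359 over the 245 loci and −0.423 over shared loci with a neighbour, both descriptions. The relation had the same sign in both sets.

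**Figure D5:**
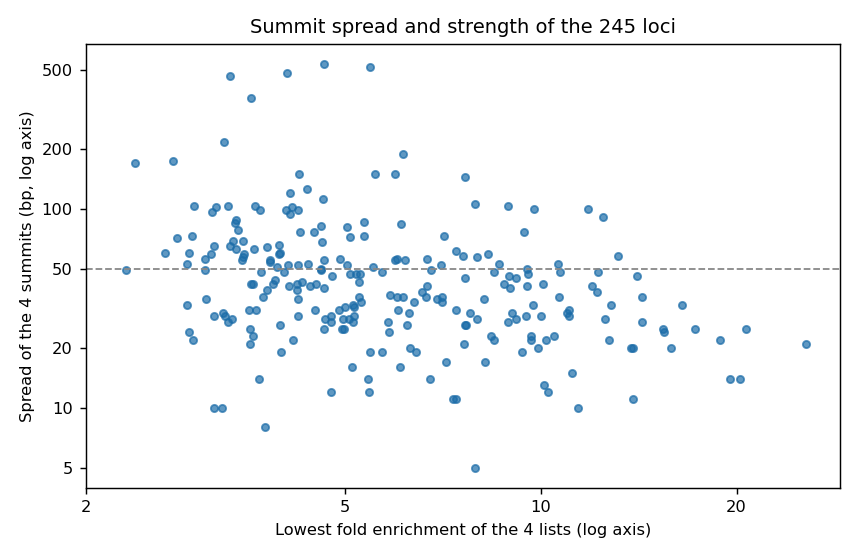
Spread of the 4 summits against the lowest fold enrichment of the 4 lists, both on log axes, with 1 point per isolated shared locus and a dashed line at 50 bp. Of the points, 158 of 245 lie on or under the line, and all 6 points above 200 bp have a lowest value of 5.47 or less.

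At 6 isolated loci (2.45%) the summits spread over more than 200 bp, against 4.65% of all shared loci. On chromosome 7 (13229608 to 13230540, spread 533 bp) and on chromosome 5 (25930581 to 25931631, spread 517 bp) GLYMA.13G317000 replicate 2 had its summit away from the other 3, which lay within 44 and 10 bp of each other. On chromosome 4 (14625896 to 14626915, spread 479 bp) it was GLYMA.13G317000 replicate 1 that lay apart, with the other 3 within 51 bp. On chromosome 11 (29195660 to 29197055, spread 463 bp), the fifth widest locus, GLYMA.06G314400 replicate 2 lay apart and the others spread over 114 bp. In these 4 loci a single list was displaced, and the other list of the same protein was not. The chromosome 7 locus had 8.67 and 5.66 with GLYMA.06G314400, beside 6.34 and 4.64 with GLYMA.13G317000, and the one on chromosome 5 had 6.13 and 7.33 with GLYMA.06G314400, beside 5.62 and 5.47 with GLYMA.13G317000. The chromosome 4 locus had 8.05 and 10.4 with GLYMA.06G314400, beside 4.08 and 5.49 with GLYMA.13G317000, and the one on chromosome 11 had 8.01 and 7.65 with GLYMA.06G314400, beside 5.68 and 3.33 with GLYMA.13G317000. The displaced list was the lowest of the 4 on chromosomes 4, 5 and 7, but not on chromosome 11.

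The locus on chromosome 1 from 22688749 to 22689737 differed. Its summits were at 22689084 and 22689129 with GLYMA.06G314400 and at 22689444 and 22689414 with GLYMA.13G317000, so each protein had its own high point in both replicates, and the spread was 360 bp. Its fold enrichments were 10.3 and 8.49 with GLYMA.06G314400, beside 4.001 and 3.59 with GLYMA.13G317000. The sixth, named after its values were seen, lay on chromosome 1 from 41799813 to 41800462. It had a spread of 216 bp, and without GLYMA.13G317000 replicate 2 the other 3 summits still spread over 150 bp. Its summits were at 41800219 and 41800282 with GLYMA.06G314400 and at 41800132 and 41800066 with GLYMA.13G317000. Here too, both summits of GLYMA.06G314400 lay to the same side of both summits of GLYMA.13G317000.

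Near the isolation distance of the rule, strong and moderate loci stood on both sides. Just inside the isolation distance, the locus on chromosome 5 from 26083606 to 26084215 had 50444 bp to its nearest neighbour, with 7.47 and 7.43 for GLYMA.06G314400, beside 6.39 and 4.15 for GLYMA.13G317000. The locus on chromosome 6 from 39756646 to 39757433, with 50471 bp, had 19.7 and 17.4 for GLYMA.06G314400, beside 18.8 and 8.63 for GLYMA.13G317000. Just outside, the locus on chromosome 10 from 16686829 to 16687828, with 49823 bp, had 20.6 and 29.3 for GLYMA.06G314400, beside 17.2 and 15.3 for GLYMA.13G317000. The locus on chromosome 8 from 36932949 to 36933504, with 49808 bp, had 10.1 and 12.6 for GLYMA.06G314400, beside 7.00 and 6.56 for GLYMA.13G317000. The ranges on either side of 50000 bp overlap in every list.

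At the position limit, the nearest loci inside the set lay at 39.9% of chromosome 1, the locus with separate summits described above, and at 60.1% of chromosome 2, from 29183208 to 29183598, with 3.51 and 3.90 for GLYMA.06G314400, beside 3.65 and 4.24 for GLYMA.13G317000. Just within the excluded centre, an isolated shared locus on chromosome 20 from 19172802 to 19173487 had 15.3 and 16.7 for GLYMA.06G314400, beside 17.1 and 8.92 for GLYMA.13G317000. Another on chromosome 17 from 24935650 to 24936463 had 9.41 and 14.5 for GLYMA.06G314400, beside 9.61 and 6.76 for GLYMA.13G317000. Median width and summit spread were 626 bp and 41 bp at the 245 loci outside the centres, against 660 bp and 44 bp at the 147 isolated shared loci inside them.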

How the data were processed

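Per the submitters' processing notes, the tools were Bowtie 0.12.7 for alignment and MACS2 for calling peaks. No source used here gives the MACS2 version, genome build, controls or treatment of duplicate and multiply mapping reads, which bear on whether a repeat can hold a peak. The authors deposited 1 peak list per precipitated sample, so replicates stayed separate. The deposited columns are fold enrichment (a ratio), −log10 p, −log10 q, summit and a score that equals −log10 q times 10 without its decimals, except in 15 peaks. All deposited peaks were used.

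Peaks were merged into loci and distances taken between locus edges (Python 3.11.15, pandas 2.3.3). Per list, a locus has the value of its highest peak. Merging and membership were tested on simulated data, where 1936 of 1936 loci gave the same answer as direct comparison. Members, comparisons and named loci were chosen with earlier results of these data known. The loci named are the strongest of each chromosome (10 in full), the 5 most isolated, the 3 weakest, those at the limits of the rule, the 5 widest and the 5 with the largest summit spread. No test was made, since the peaks that chose the loci are the only measurement. Alternatives varied the distance, centre, joining of peaks, q, kind of neighbour and lists.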

Additional observations from a re-analysis of the deposited data

How the results depend on the processing

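Values were called moved if they differed by more than 1.5 times for counts, or by more than 1 SD between replicates otherwise. For summit spread (1.41 bp) and the isolated share (0.192%), that SD was between the replicate 1 and replicate 2 lists alone. For lowest fold enrichment (1.29) and width (83.5 bp), it came from medians of single lists. The limit of 1.29 is loose, as the replicate 1 and replicate 2 lists alone gave 5.64 and 5.44. The number of isolated shared loci was 583 with an isolation distance of 25000 bp and 82 with 100000 bp. It was 778 if only loci with a peak in all 4 lists counted as neighbours. In these cases the isolated share was 1.94%, 0.273% and 2.59%. That share was 1.03% with an excluded centre of 45% to 55% and 1.19% if neighbours needed a peak in at least 2 lists. With the replicate number as a block, the replicate 1 lists alone gave 379 isolated loci and the replicate 2 lists alone 353 (1.13% of shared loci). Without 1 list at a time, 264 to 328 loci were isolated. The median lowest fold enrichment stayed between 5.16 and 5.83 under all 17 alternatives. Median summit spread was 34 bp at 100000 bp, 38 bp with a centre of 35% to 65% and 39 bp with a −log10 q of at least 5. It was 31 to 34 bp without 1 list, and 21 and 19 bp in the replicate 1 and replicate 2 lists alone, where fewer summits enter by construction. Median width was 527 to 624 bp without 1 list and 483 bp in the replicate 2 lists alone. With chromosome 13, 254 loci were isolated. Requiring a neighbour on both sides, chosen after the data were examined, gave 244. Unknown depth limits every count, since a deeper list can add neighbours.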
